A study of Mus musculus with 35 samples.

Results

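Collagens are the main structural proteins of the extracellular matrix, and their genes were read here across 6 tissues of the mouse embryo. Every gene whose symbol has the form Col, a type number, the letter a and a chain number was taken as a collagen gene, which gave 43 of the 30723 genes in the tables. Of these, 33 had a mean of at least 1 FPKM (fragments per kilobase of transcript, scaled to the total of the library) in some tissue and entered the tests, and the other 10 stayed at a tissue mean of 0.367 FPKM or less. Emid2, which RefSeq lists as a synonym of Col26a1, does not have a collagen symbol and was not counted, with its highest tissue mean in MXP (129 FPKM) and its lowest in vB (15.04 FPKM).

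The study compared organ systems that are often affected when cilia are defective. Limb, the frontonasal, mandibular and maxillary prominences of the face (FNP, MNP and MXP) and dorsal and ventral brain (dB and vB, labelled as dorsal and ventral neural tube) were dissected from CD1 wild-type embryos at embryonic day 11.5. There were 6 libraries of limb, FNP, MNP, dB and vB each and 5 of MXP (replicates 1, 2, 3, 5 and 6), so that facial tissue had 17 libraries, neural tissue 12 and the whole series 35. No group had received a treatment or carried an engineered allele, and each library was a pool of tissue from several embryos, which hides differences between embryos. Since these are bulk tissues, fewer cells of a type and less RNA per cell cannot be told apart at any gene below.

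Collagen chains fold in groups of 3 into a triple helix, and the classes differ in what the helices build. Fibrillar collagens (types I, II, III, V, XI, XXIV and XXVII) pack into the banded fibrils of connective tissue and cartilage. Basement membrane collagen (type IV) forms a sheet-like network under epithelia, around vessels and around the neural tube. FACITs, fibril-associated collagens with interrupted triple helices (types IX, XII, XIV, XVI, XIX, XX and XXII here), sit on the surface of fibrils or at tissue borders. The other members form beaded filaments (type VI), anchoring fibrils (type VII), hexagonal networks (types VIII and X), basement membrane proteoglycans (types XV and XVIII) or span the cell membrane (types XIII, XVII, XXIII and XXV). At this stage of mouse development limb and facial mesenchyme has begun to form cartilage condensations, and the neural tube is lined by a basement membrane and invaded by vessels.

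Neural labels matched their markers: summed FPKM of 7 neural progenitor markers ranged from 607 to 849 in dB and vB and did not pass 185 elsewhere. Limb and MNP overlapped in 5 limb genes, which summed to 115 to 385 in limb and up to 164 in MNP. They were separated by 6 facial genes, which summed to 20.2 to 36.6 in limb and 342 to 413 in MNP. Some libraries stood apart. FNP replicates 4 and 5 had the most neural progenitor signal among facial libraries (185 and 139 FPKM, against 36.5 to 56.8 in the other FNP libraries). Among vB libraries, 8 mesenchyme markers (Prrx1, Prrx2, Twist1, Twist2, Pdgfra, Msx1, Msx2 and Snai1) summed to 83.9, 68.1 and 175 FPKM in replicates 1, 4 and 5 and to 17.1, 9.62 and 5.64 FPKM in replicates 2, 3 and 6. Results are therefore also given without FNP replicates 4 and 5 and vB replicates 1, 4 and 5 together. These libraries were chosen by their markers, so differences in genes that move with the markers are partly set by that choice. Transcripts under 200 bases took 19.1 to 39.2% of the FPKM total in the replicates numbered 1 and 0.653 to 10.3% in the others. Depth, read as coverage at 1 FPKM, lay between 2.71 and 5.52 reads per base.

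Summed over all 43 genes, collagen FPKM was highest in the face and lowest in vB. The sum ranged from 266 to 721 in limb (median 427), 589 to 958 in FNP (median 676), 426 to 908 in MNP (median 566), and 462 to 929 in MXP (median 588), against 300.1 to 605 in dB (median 429) and 82.9 to 522 in vB (median 211), all in FPKM. Tissues next to each other in the order of these medians overlapped, and vB had the highest ratio of its highest library (replicate 5) to its lowest (replicate 6).

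The fibrillar genes took the largest share in every tissue, from 70.0% ± 1.08 (SD) of collagen FPKM in FNP down to 57.7% ± 8.84 in vB. Shares of the basement membrane genes were 13.0% ± 2.15 in limb, 10.5% ± 1.84 in facial tissue and 18.1% ± 3.53 in neural tissue. Neural shares ran from 13.1 to 25.9%, and 1 neural library, vB replicate 4, lay within the facial range of 8.08 to 13.4%. FACIT genes held 12.9% ± 4.44 in limb, 6.23% ± 2.15 in FNP, 9.30% ± 3.12 in MNP, and 3.70% ± 0.789 in MXP, against 3.18% ± 0.415 in dB and 6.96% ± 2.22 in vB. As summed FPKM the FACIT class ranged from 25.7 to 108 in limb (median 44.6) and 26.0 to 80.4 in FNP (median 40.4). In MNP the range was 38.8 to 79.5 (median 56.0) and in MXP 16.4 to 30.9 (median 23.6). It was 9.46 to 18.0 in dB (median 13.1) and 8.49 to 28.5 in vB (median 10.4). FACIT sums of the limb, FNP and MNP libraries did not overlap with those of dB, and the MNP sums also lay above every MXP and vB library. These sums and shares are descriptions and were not tested.

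**Figure D1:**
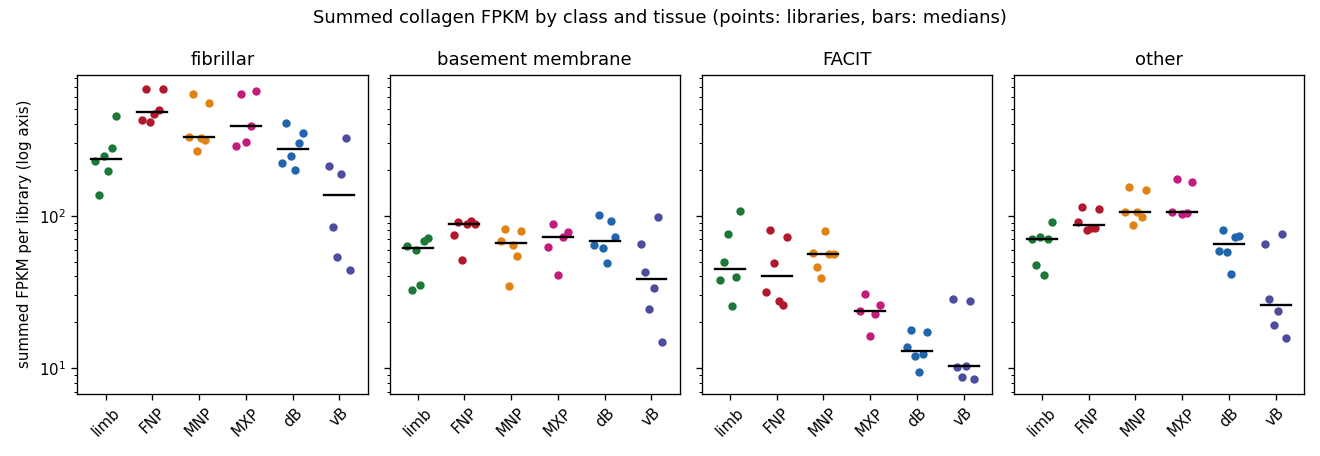
Summed FPKM of the collagen genes of each class (log axis) in each library, by tissue. Points are libraries (5 in MXP, 6 in each other tissue) and bars are medians: the fibrillar sums lie above the other classes in every tissue. The FACIT medians are 44.6 FPKM in limb, 40.4 in FNP and 56.0 in MNP, against 13.1 in dB and 10.4 in vB.

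A few genes carried much of this signal. Together Col1a2, Col3a1 and Col2a1 made up 44.4% ± 5.38 of collagen FPKM in limb, 58.1% ± 2.16 in FNP, 46.1% ± 2.00 in MNP, and 48.3% ± 2.47 in MXP, against 44.9% ± 2.24 in dB and 38.2% ± 11.9 in vB (SD). Of the 33 tested genes, 12 had their highest tissue mean in FNP, 10 in MXP, 6 in MNP, 2 in limb, 2 in dB (Col4a5 and Col4a6) and 1 in vB (Col22a1). The mean reached 1 FPKM in all 6 tissues for 20 of the 33 genes and in only some tissues for the other 13, which entered the tests through the tissue where they are high, so that counts over the 33 do not speak for all 43. The median ratio of the highest to the lowest library within a tissue, over those 20 genes, was 3.33 in limb, 2.15 in FNP, 2.65 in MNP, and 2.43 in MXP, against 2.47 in dB and 9.55 in vB. Single libraries set these ranges. Limb replicate 6 was the highest limb library for 26 of the 33 genes and replicate 4 the lowest for 19. Replicate 2 was the highest for 18 genes in FNP, 18 in MNP and 18 in dB. The library of dB replicate 4 was the lowest for 25, vB replicate 5 was the highest for 22 and vB replicate 6 the lowest for 20.

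**Figure D2:**
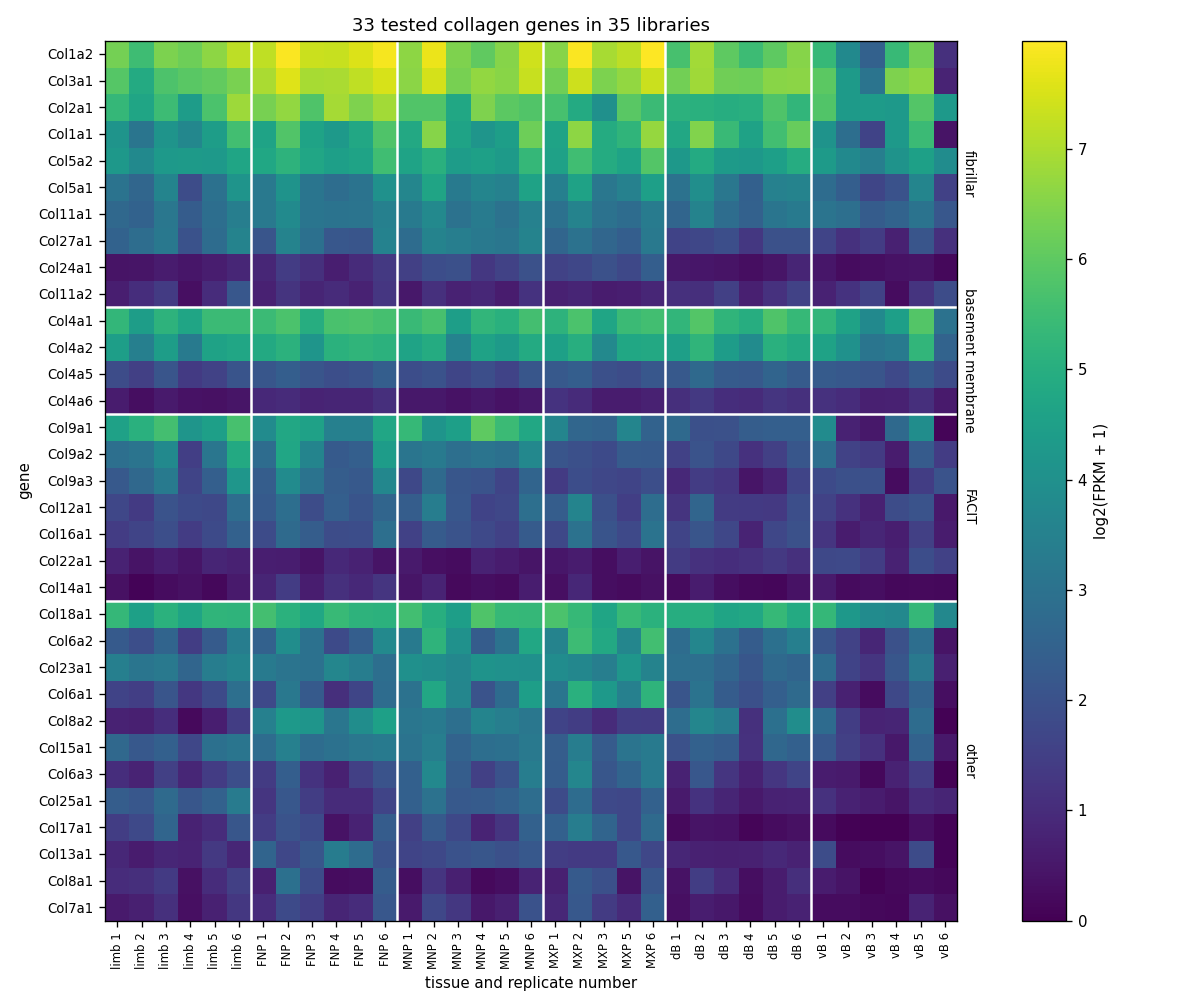
Level of the 33 tested collagen genes, as log2(FPKM + 1), in each of the 35 libraries. Rows are genes grouped by class and ordered by mean level, columns are libraries by tissue and replicate number, and white lines separate classes and tissues: the columns of vB replicates 2, 3 and 6 hold lower levels of Col1a2, Col3a1 and Col1a1 than those of replicates 1, 4 and 5, while Col4a5 differs by no more than 1.65-fold among vB libraries.

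Differences between tissues were tested in limma on log2(FPKM + 1) over 13934 genes, and a gene was called where it changed 2-fold or more on that scale with an adjusted p (Benjamini-Hochberg, over all genes of a comparison) below 0.05. The added 1 makes changes of low genes look smaller. Log2 fold changes are given ± their standard error. In facial over neural tissue 14 of the 33 collagen genes were higher and 0 lower, beside 4.64% of all tested genes called higher and 6.64% called lower. The median log2 fold change was 0.93 over the collagen genes and 0.02 over all genes. Of the 14, Col17a1, Col24a1 and Col25a1 had means under 1 FPKM in dB and in vB. They entered the tests only through limb or facial tissue, so their higher calls rest in part on the filter. Col22a1 and Col4a6, not called here, entered through neural tissue alone. In limb over neural tissue 7 were higher and 1 lower (background 4.36% and 8.05%), with medians of 0.32 and 0.01. In limb over facial tissue 0 were higher and 5 lower (background 1.11% and 1.51%), with medians of -0.41 and -0.02. These 3 comparisons share their limb, facial or neural libraries, so they are not separate evidence. The 8 mesenchyme markers were higher in limb and facial than in neural tissue. They summed to 435 to 594 in limb, 409 to 601 in FNP, 571 to 782 in MNP and 581 to 969 in MXP. In dB the sum was 76.4 to 125 and in vB 5.64 to 175 (FPKM). Limb sums overlapped with those of each facial tissue, and the part of these markers in the results was not tested. A pseudocount of 0.1 in place of 1 gave 21 higher and 1 lower call in facial over neural tissue, the lower one being Col22a1, beside 7.63% and 9.44% of all genes in that fit. In replicates 4 to 6 alone, 12 were called higher in facial over neural (background 4.51%) and 4 higher in limb over neural tissue (background 4.19%). In limb over facial tissue 0 were called, beside 124 higher and 121 lower of all 13843 genes.

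By class, facial over neural tissue gave higher calls for 4 of 10 fibrillar, 0 of 4 basement membrane, 2 of 7 FACIT and 8 of 12 other genes. Limb over neural tissue gave higher calls for 2 fibrillar, 0 basement membrane, 3 FACIT and 2 other genes and a lower call for Col8a2 alone. All 5 genes lower in limb than in facial tissue belonged to the other class. Within the face, FNP over MNP gave 0 higher and 2 lower calls (background 1.69% and 0.99%), FNP over MXP gave 3 higher and 4 lower (background 1.53% and 0.746%), and MNP over MXP gave 2 higher and 0 lower (background 0.689% and 0.344%). In dB over vB, 4 were higher and 0 lower (background 0.954% and 0.438%). Over the 15 tissue pairs, 27 of the 33 were called in at least 1 pair, beside 21.3% of all tested genes, and the 6 that were not called in any pair were Col11a1, Col11a2, Col14a1, Col18a1, Col4a5 and Col4a6. Without FNP replicates 4 and 5 and vB replicates 1, 4 and 5, facial over neural tissue gave 21 higher calls (background 5.6%) and FNP over MNP 2 higher and 0 lower (Col8a1 and Col9a3, background 1.93% higher). FNP over MXP gave 5 higher and 1 lower (background 1.8% and 0.618%), and dB over vB 12 higher and 0 lower (background 3.24% and 2.07%). As the libraries were left out by their markers, these counts are not separate support.

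**Figure D3:**
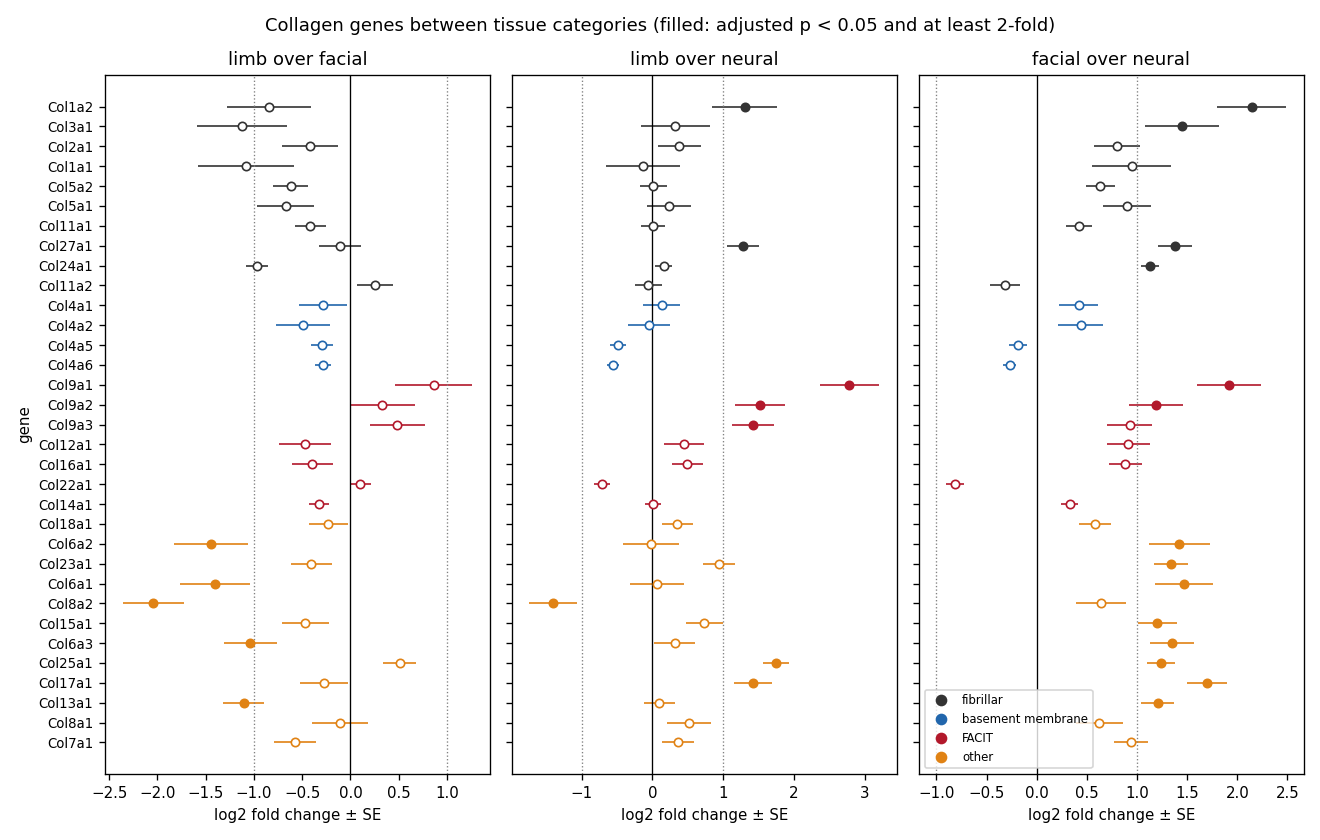
Log2 fold changes with standard errors of the 33 tested collagen genes in limb over facial, limb over neural and facial over neural tissue, from the fit on log2(FPKM + 1). Colours give the class, filled points are called and dotted lines mark a fold change of 2 in either direction: filled points lie to the left in limb over facial tissue (5 genes) and to the right in facial over neural tissue (14 genes).

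Col1a2 (chr6:4505697-4541543 in mm10, plus strand) and Col1a1 (chr11:94936270-94951856, plus strand) encode the 2 chains of type I collagen, the chief fibril of bone, skin and mesenchyme. Col1a2 ranged from 44.6 to 144 FPKM in limb (median 81.4), 148 to 245 in FNP (median 173) and 64.2 to 216 in MNP (median 94.2), and was 92.3, 246, 122, 144 and 252 FPKM in the MXP libraries. Col1a2 ranged from 43.1 to 115 FPKM in dB (median 63.0) and 1.15 to 77.7 in vB (median 26.2). All FNP libraries were above all neural libraries, while limb, MNP and MXP overlapped with dB. Col1a2 was higher in facial over neural tissue with a log2 fold change of 2.14 ± 0.35 (limma adjusted p = 2.79e-06), and it was higher in limb over neural tissue by 1.30 ± 0.46 (limma adjusted p = 0.0198). The limb call was not kept in replicates 1 to 3 or in replicates 4 to 6 alone, or in the test against a fold of 1.5, with log2 fold changes of 1.00 to 2.11 over 21 alternatives.

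Col1a1 ranged from 7.53 to 46.4 FPKM in limb (median 16.4), 18.5 to 54.8 in FNP (median 25.3) and 16.9 to 92.1 in MNP (median 25.4), and was 23.8, 98.7, 29.2, 36.5 and 103 FPKM in the MXP libraries. Col1a1 ranged from 23.0 to 88.3 FPKM in dB (median 43.6) and 0.336 to 42.1 in vB (median 11.4). Its dB libraries lay within the range of the facial libraries, and it was not called between categories (facial over neural 0.95 ± 0.40, limma adjusted p = 0.0435). The ratio of these chains differed between tissues: Col1a1 FPKM over Col1a2 FPKM was 0.162 to 0.322 in limb (median 0.201), 0.116 to 0.229 in FNP (median 0.156), 0.233 to 0.438 in MNP (median 0.276) and 0.240 to 0.410 in MXP (median 0.258), against 0.533 to 0.766 in dB (median 0.692) and 0.412 to 0.542 in vB (median 0.453), where vB replicate 6, with Col1a1 under 1 FPKM, was left out. The ratios of dB did not overlap with those of limb or of any facial tissue, and the 5 vB ratios overlapped with those of dB and, at their lowest, with the highest of MNP. In replicates 1 to 3 alone the median ratio was 0.162 in FNP, against 0.657 in dB, and in replicates 4 to 6 alone 0.142 in FNP, against 0.727 in dB.

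Col3a1 (chr1:45311538-45349706, plus strand), the type III chain of soft and vascular connective tissue, ranged from 28.6 to 82.7 FPKM in limb (median 59.4), 121 to 194 in FNP (median 137) and 80.1 to 177 in MNP (median 99.1), and was 74.5, 166, 83.2, 102 and 160.0 FPKM in the MXP libraries. Col3a1 ranged from 73.3 to 113 FPKM in dB (median 85.2) and 0.722 to 98.3 in vB (median 40.7). The FNP libraries were all above the limb and dB libraries, and 1 vB library lay under 1 FPKM. Col3a1 was higher in facial over neural tissue by 1.45 ± 0.37 (limma adjusted p = 0.00127), and limb over neural tissue gave 0.32 ± 0.49 (limma adjusted p = 0.636). The facial call was lost in replicates 4 to 6 alone and against a fold of 1.5, and its log2 fold change ranged over 1.07 to 2.37 among 21 alternatives.

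Col2a1 (chr15:97975602-98004724, minus strand) encodes type II collagen, the fibril of cartilage, which is also made by notochord and embryonic epithelia. It ranged from 20.1 to 110.2 FPKM in limb (median 41.4), 54.5 to 118 in FNP (median 93.8) and 25.8 to 85.4 in MNP (median 55.7), and was 49.2, 28.3, 15.2, 60.3 and 42.3 FPKM in the MXP libraries. Col2a1 ranged from 30.4 to 53.9 FPKM in dB (median 33.3) and 18.4 to 56.7 in vB (median 19.6). In FNP 5 of 6 libraries stood at 80.5 FPKM or more, above every MXP and every neural library, and the neural libraries overlapped with limb, MNP and MXP. FNP over MXP was 1.33 ± 0.37 (limma adjusted p = 0.0217), a call lost without MXP replicate 2 or 3, in replicates 1 to 3 and 4 to 6 alone and against a fold of 1.5 (range 1.03 to 1.51). In vB replicate 6, where type I and type III chains were near 0, Col2a1 stood at 18.4 FPKM, beside 19.5 and 19.6 in vB replicates 2 and 3.

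Col2a1 has 2 transcripts in the tables, of 5133 and 4929 bases, whose lengths differ by 204 bases. In the GENCODE vM21 annotation of mm10 they differ by exon 2 of 54, at chr15:98000403-98000606 on the minus strand, 204 bases long, which encodes the cysteine-rich domain of the type IIA propeptide and is left out of type IIB, the form of mature cartilage. It is shown because the share of the shorter form differed between libraries, with its 10 in-frame cysteine codons in capitals, read from the GENCODE transcript.
Col2a1 exon 2: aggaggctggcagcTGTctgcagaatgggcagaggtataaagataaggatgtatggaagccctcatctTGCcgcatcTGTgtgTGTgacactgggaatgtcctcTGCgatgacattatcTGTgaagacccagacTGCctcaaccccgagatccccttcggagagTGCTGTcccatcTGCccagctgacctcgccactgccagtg
The form without this exon held 7.26 to 51.8% in limb (median 15.1%), 3.94 to 24.5% in FNP (median 8.86%), 5.06 to 29.8% in MNP (median 10.97%), and 8.20 to 15.9% in MXP (median 10.2%), against 13.5 to 23.5% in dB (median 20.3%) and 10.8 to 49.7% in vB (median 24.9%) of Col2a1 FPKM. The form with the exon was thus the main one in all libraries but limb replicate 4, and the ranges of the tissues overlapped. A single exon separates the forms, and these shares are Cufflinks estimates that were not tested.

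**Figure D4:**
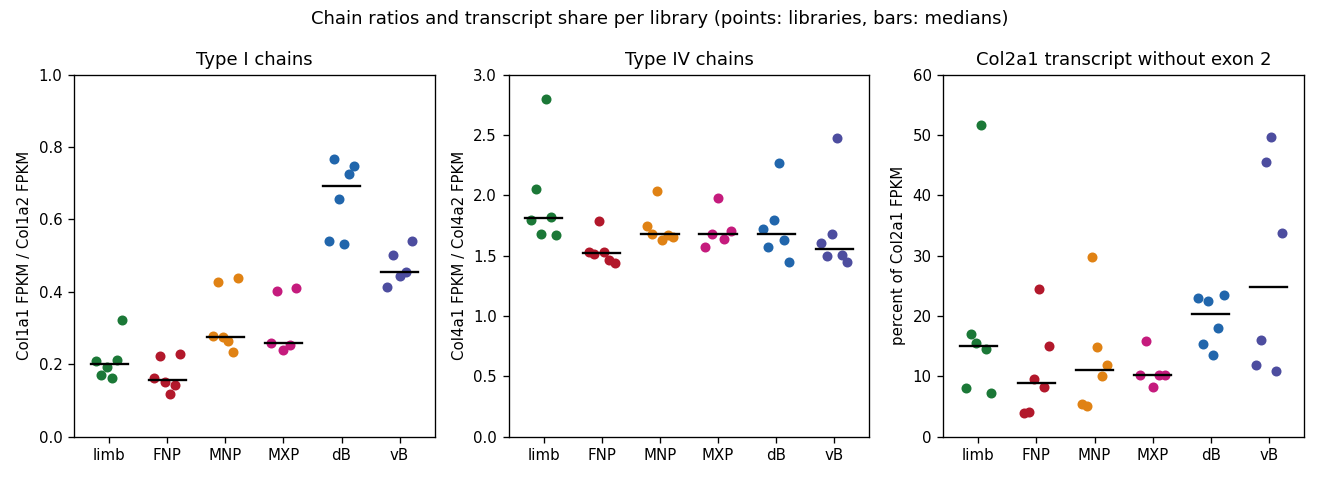
Ratio of Col1a1 to Col1a2 FPKM (left), ratio of Col4a1 to Col4a2 FPKM (middle) and percent of Col2a1 FPKM in the transcript without exon 2 (right) in each library, by tissue. Points are libraries and bars are medians, and vB replicate 6 is left out of the left plot: the type I ratio has its lowest median in FNP (0.156) and its highest in dB (0.692), and the type IV ratio stays between 1.44 and 2.80 throughout.

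The minor fibrillar genes followed separate courses. Col5a2, a type V chain that limits fibril width, averaged 18.8 ± 3.87 FPKM in limb, 29.5 ± 8.84 in FNP, 26.2 ± 7.90 in MNP and 35.5 ± 14.8 in MXP, against 22.5 ± 5.10 in dB and 15.7 ± 4.54 in vB (SD). Col5a1, its partner chain, averaged 8.29 ± 4.99 FPKM in limb, 10.2 ± 4.45 in FNP, 14.9 ± 6.77 in MNP and 14.6 ± 7.25 in MXP, against 9.21 ± 3.44 in dB and 4.78 ± 3.53 in vB. Neither passed both thresholds between categories, facial over neural being 0.63 ± 0.14 (limma adjusted p = 0.000317) for Col5a2 and 0.90 ± 0.24 (limma adjusted p = 0.00159) for Col5a1. Col11a1, a type XI chain of cartilage fibrils, had its highest tissue mean in MNP (9.15 FPKM) and its lowest in vB (5.56 FPKM), and Col11a2, its partner, had tissue means from 1.34 FPKM in limb down to 0.682 FPKM in MXP. Col27a1, a fibrillar collagen of cartilage, averaged 6.52 ± 2.76 FPKM in limb and 7.17 ± 2.79 in facial tissue, against 2.05 ± 0.842 in neural tissue. It was higher than in neural tissue in limb by 1.28 ± 0.23 (limma adjusted p = 1.69e-05) and in the face by 1.38 ± 0.17 (limma adjusted p = 2.01e-08), both kept in all 21 alternatives. Col24a1, a fibrillar collagen known from bone, averaged 0.498 ± 0.177 FPKM in limb and 2.01 ± 0.939 in facial tissue, against 0.344 ± 0.165 in neural tissue. Facial over neural was 1.13 ± 0.09 (limma adjusted p = 7.77e-13), and limb over neural was 0.16 ± 0.12 (limma adjusted p = 0.295). Col5a3 was not tested and did not pass 0.282 FPKM in any library.

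Col4a1 (chr8:11198423-11312826, minus strand) and Col4a2 (chr8:11312829-11449287, plus strand) encode the chains of the common type IV collagen network. They lie head to head on chromosome 8 with 2 bases between their first annotated bases in the tables. Their RefSeq start windows, each from 250 bases before to 50 bases after a start, in GRCm38.p6 (the sequence of mm10), share 78 bases at chr8:11312777-11312854. The windows are shown because these neighbours start within a few bases of each other, with matches to the CCAAT box (CCAAT) and the GC box (GGGCGG), on either strand, in capitals. No match of 1 motif overlapped with the other, and the TATA box (TATAAA) and a SOX half-site (AACAAT) had none in either window.
Col4a1, chr8:11312777-11313076, minus strand: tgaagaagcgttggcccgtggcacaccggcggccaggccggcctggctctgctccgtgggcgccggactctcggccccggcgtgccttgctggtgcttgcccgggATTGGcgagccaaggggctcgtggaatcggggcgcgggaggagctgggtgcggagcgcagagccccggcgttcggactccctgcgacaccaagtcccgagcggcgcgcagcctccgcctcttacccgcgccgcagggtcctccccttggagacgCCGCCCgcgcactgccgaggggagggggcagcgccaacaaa
Col4a2, chr8:11312555-11312854, plus strand: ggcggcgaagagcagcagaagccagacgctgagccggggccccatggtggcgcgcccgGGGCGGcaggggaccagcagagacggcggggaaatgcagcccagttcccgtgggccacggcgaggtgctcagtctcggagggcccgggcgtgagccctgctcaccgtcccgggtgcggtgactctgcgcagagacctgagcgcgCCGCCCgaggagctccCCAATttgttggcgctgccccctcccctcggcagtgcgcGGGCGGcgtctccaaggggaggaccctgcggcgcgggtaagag
RefSeq gave 38 such windows for 35 of the 43 collagen genes. The CCAAT box was in 13 of them, beside 37.4% of all 32851 windows, the GC box in 23 (beside 35.7%), the TATA box in 5 (beside 13.6%) and the SOX half-site in 1 (beside 10.7%). A match describes the letters of the window only.

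Col4a1 ranged from 20.6 to 42.8 FPKM in limb (median 36.8), 30.3 to 52.9 in FNP (median 49.9) and 21.4 to 49.0 in MNP (median 39.6), and was 35.1, 52.1, 24.8, 42.8 and 46.8 FPKM in the MXP libraries. Col4a1 ranged from 30.5 to 56.9 FPKM in dB (median 38.6) and 6.998 to 56.1 in vB (median 22.3). Col4a2 ranged from 8.83 to 25.5 FPKM in limb (median 21.2), 17.0 to 36.1 in FNP (median 33.6) and 10.5 to 29.1 in MNP (median 23.4), and was 22.4, 31.0, 12.5, 26.1 and 27.5 FPKM in the MXP libraries. Col4a2 ranged from 13.5 to 36.1 FPKM in dB (median 24.6) and 4.85 to 37.2 in vB (median 12.1). All tissues overlapped for both genes, and the lowest level was that of vB replicate 6. Between categories the log2 fold changes of Col4a1 were -0.29 ± 0.25 (limma adjusted p = 0.505) in limb over facial, 0.13 ± 0.26 (limma adjusted p = 0.728) in limb over neural and 0.42 ± 0.20 (limma adjusted p = 0.0731) in facial over neural tissue. Col4a1 FPKM over Col4a2 FPKM was 1.44 to 2.80 in all 35 libraries (median 1.67), with tissue medians from 1.81 in limb down to 1.52 in FNP. The genes differ in length and the scale is per length, so that the ratio compares levels of transcript. Across the 12 neural libraries Col4a1 stood between 6.998 and 56.9 FPKM while the ratio stayed between 1.44 and 2.47. Endothelial markers, 10 genes, differed among the same libraries: their summed FPKM was 56.3, 49.9 and 41.0 in vB replicates 2, 3 and 6, where Col4a1 was 23.0, 12.7 and 6.998 FPKM. It was 113, 113 and 123 in vB replicates 1, 4 and 5, where Col4a1 was 37.2, 21.6 and 56.1 FPKM. Replicate 4 had a high marker sum and a low Col4a1 level, and the part of vessels in these levels was not tested.

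Col4a5 (chrX:141475419-141689235, plus strand) and Col4a6 (chrX:141165403-141474076, minus strand), type IV chains of particular epithelial basement membranes, are neighbours on the X chromosome and had their highest tissue means in dB. Col4a5 ranged from 1.55 to 3.30 FPKM in limb (median 2.30), 2.74 to 4.26 in FNP (median 3.34) and 2.03 to 3.36 in MNP (median 2.75), and was 3.67, 4.25, 2.87, 2.59 and 3.46 FPKM in the MXP libraries. Col4a5 ranged from 3.69 to 5.66 FPKM in dB (median 3.90) and 2.38 to 3.92 in vB (median 3.44). The dB libraries lay above all limb and MNP libraries, and dB over vB was 0.31 ± 0.14 (limma adjusted p = 0.213). Col4a6 averaged 0.365 ± 0.114 FPKM in limb, 0.868 ± 0.136 in FNP, 0.389 ± 0.0643 in MNP and 0.779 ± 0.309 in MXP, against 1.19 ± 0.204 in dB and 0.843 ± 0.294 in vB (SD). Limb over neural tissue was -0.55 ± 0.08 (limma adjusted p = 1.77e-06), under the fold threshold. The FNP libraries lay above all MNP libraries, with a log2 fold change of 0.43 ± 0.10 (limma adjusted p = 0.00318), also under the threshold. Col4a3 and Col4a4, chains of the kidney glomerulus, did not pass 0.0665 FPKM in any library.

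Type IX collagen, the FACIT that coats cartilage fibrils, is made of chains from Col9a1, Col9a2 and Col9a3, and Col9a1 had the largest log2 fold change of limb over neural tissue among the tested collagen genes. Col9a1 (chr1:24177610-24252738, plus strand) is read from 2 starts, the upstream one known from cartilage and the downstream one, which leaves out the amino-terminal domain of the protein, known from the eye. Their RefSeq windows are shown because nearly all signal came from 1 of them, with matches to the same 4 motifs in capitals.
Col9a1 upstream start, chr1:24177360-24177659, plus strand: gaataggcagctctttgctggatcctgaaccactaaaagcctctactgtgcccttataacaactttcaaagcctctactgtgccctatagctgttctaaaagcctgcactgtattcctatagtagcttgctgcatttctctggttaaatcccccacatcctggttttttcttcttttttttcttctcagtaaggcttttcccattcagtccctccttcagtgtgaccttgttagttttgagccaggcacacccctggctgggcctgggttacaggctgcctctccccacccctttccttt
Col9a1 downstream start, chr1:24194953-24195252, plus strand: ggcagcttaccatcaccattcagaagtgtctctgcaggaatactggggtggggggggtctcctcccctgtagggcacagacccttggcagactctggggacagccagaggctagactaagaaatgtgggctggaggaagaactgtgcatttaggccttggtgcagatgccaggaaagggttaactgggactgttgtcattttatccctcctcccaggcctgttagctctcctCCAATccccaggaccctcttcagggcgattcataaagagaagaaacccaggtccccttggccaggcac
The upstream window had no match to any of the 4 motifs and the downstream window had 1, to the CCAAT box. The transcript of the downstream start held at least 97.8% of Col9a1 FPKM in limb, 99.7% in FNP, 98.5% in MNP and 99.2% in MXP, in dB and in the 3 vB libraries with at least 1 FPKM. The upstream form passed 1% of Col9a1 FPKM in 2 of these 32 libraries, and its highest level was 1.10 FPKM, in limb.

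Col9a1 ranged from 16.8 to 49.8 FPKM in limb (median 27.4), 10.2 to 26.7 in FNP (median 18.1) and 16.6 to 63.3 in MNP (median 33.3), and was 11.4, 5.15, 4.81, 11.4 and 4.73 FPKM in the MXP libraries. Col9a1 ranged from 2.90 to 5.56 FPKM in dB (median 4.23) and 0.0684 to 14.0 in vB (median 3.15). All limb libraries were above all neural libraries and all MNP above all MXP libraries, while limb, FNP and MNP overlapped. It was higher in limb over neural tissue by 2.78 ± 0.42 (limma adjusted p = 1.44e-06) and in facial over neural tissue by 1.92 ± 0.32 (limma adjusted p = 4.73e-06), and both calls were kept in all 21 alternatives. MNP over MXP was 2.05 ± 0.51 (limma adjusted p = 0.0209), a call that 7 of 21 alternatives lost, among them the fits without MXP replicate 2, 3 or 6 (range 1.73 to 2.34). In vB it was 13.3, 0.700, 0.420, 5.60, 14.0 and 0.0684 FPKM in replicates 1 to 6, high in replicates 1, 4 and 5 and near 0 in replicate 6.

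Col9a2 (chr4:121039566-121055325, plus strand) ranged from 1.80 to 28.1 FPKM in limb (median 7.59), 3.798 to 25.2 in FNP (median 8.60) and 6.50 to 12.3 in MNP (median 7.46), and was 3.32, 2.84, 2.46, 3.93 and 3.78 FPKM in the MXP libraries. Col9a2 ranged from 1.22 to 3.38 FPKM in dB (median 2.12) and 0.518 to 6.38 in vB (median 1.80). All FNP and MNP libraries and all limb libraries but the lowest exceeded every dB library, and limb over neural was 1.52 ± 0.35 (limma adjusted p = 0.000605). Facial over neural tissue gave 1.19 ± 0.27 (limma adjusted p = 0.000305), and the limb call was lost in replicates 4 to 6 alone and against a fold of 1.5. Col9a3 (chr2:180598222-180622185, plus strand) ranged from 2.14 to 17.2 FPKM in limb (median 4.88), 3.66 to 13.5 in FNP (median 5.65) and 2.09 to 5.76 in MNP (median 3.27), and was 1.54, 2.67, 2.28, 2.10 and 2.80 FPKM in the MXP libraries. Col9a3 ranged from 0.379 to 2.14 FPKM in dB (median 1.15) and 0.199 to 3.15 in vB (median 2.66). FNP lay above MXP without overlap, and limb overlapped with neural tissue only at its lowest library. Limb over neural was 1.42 ± 0.30 (limma adjusted p = 0.000170), kept in all 21 alternatives. FNP over MXP was 1.22 ± 0.36 (limma adjusted p = 0.0332), a call that 8 of 21 alternatives lost, among them the fits without MXP replicate 1, 2, 3 or 5. The Col9a1 to Col9a2 ratio was 1.77 to 9.33 in limb (median 3.60) and 1.89 to 8.57 in MNP (median 4.31), beside 1.06 to 2.70 in FNP (median 2.12), so that these chains did not hold a common ratio.

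The other FACIT genes were low. Col12a1, of dense connective tissue, averaged 2.99 ± 1.64 FPKM in limb, 4.23 ± 1.35 in FNP, 4.64 ± 2.81 in MNP and 5.23 ± 3.71 in MXP, against 2.30 ± 1.43 in dB and 1.67 ± 1.07 in vB (SD), and facial over neural was 0.91 ± 0.22 (limma adjusted p = 0.000533), under the fold threshold. Col16a1 averaged 2.54 ± 1.07 FPKM in limb, 4.05 ± 1.77 in FNP, 2.86 ± 0.910 in MNP and 4.43 ± 2.5002 in MXP, against 2.26 ± 0.879 in dB and 0.946 ± 0.538 in vB, with 0.88 ± 0.17 (limma adjusted p = 3.14e-05) in the same comparison. Col22a1, known from tissue junctions such as those of muscle and tendon, had its highest mean in vB and averaged 0.572 ± 0.183 FPKM in limb, 0.563 ± 0.210 in FNP, 0.418 ± 0.189 in MNP and 0.415 ± 0.143 in MXP, against 1.29 ± 0.205 in dB and 1.95 ± 0.695 in vB. Limb over neural tissue was -0.71 ± 0.11 (limma adjusted p = 3.32e-06) and facial over neural tissue -0.81 ± 0.09 (limma adjusted p = 7.03e-10), both under the fold threshold on this scale, and it was called lower in MNP over vB and in MXP over vB. Each limb library lay under every neural library but vB replicate 4, at 0.712 FPKM. Col14a1 averaged 1.07 FPKM in FNP and 0.373 FPKM or less in each other tissue. Col19a1 and Col20a1 were not tested, and their highest libraries stood at 0.364 and 1.02 FPKM.

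Type VI collagen forms the beaded filaments around mesenchymal cells, from chains encoded by Col6a1 (chr10:76708792-76726044), Col6a2 (chr10:76595756-76623404) and Col6a3 (chr1:90766860-90843971), all on the minus strand. Its genes were lower in FNP than in MXP and lower in limb than in facial tissue. Col6a1 ranged from 1.43 to 6.59 FPKM in limb (median 2.27), 1.11 to 8.21 in FNP (median 3.11) and 3.09 to 26.7 in MNP (median 9.35), and was 7.68, 32.3, 18.5, 10.2 and 35.2 FPKM in the MXP libraries. Col6a1 ranged from 2.85 to 7.21 FPKM in dB (median 4.16) and 0.214 to 4.79 in vB (median 1.26). The MXP libraries were above all limb libraries and above all FNP libraries but replicate 2, and MNP and MXP overlapped. Col6a2 ranged from 1.71 to 9.51 FPKM in limb (median 3.83), 2.45 to 14.1 in FNP (median 5.71) and 4.05 to 35.5 in MNP (median 12.1), and was 10.8, 42.9, 27.0, 11.6 and 46.7 FPKM in the MXP libraries. Col6a2 ranged from 3.98 to 11.7 FPKM in dB (median 6.75) and 0.347 to 6.38 in vB (median 2.44). Col6a3 ranged from 0.754 to 2.78 FPKM in limb (median 1.38), 0.661 to 4.22 in FNP (median 1.72) and 1.82 to 12.4 in MNP (median 4.28), and was 3.97, 11.6, 3.44, 4.98 and 8.62 FPKM in the MXP libraries. Col6a3 ranged from 0.685 to 3.45 FPKM in dB (median 1.37) and 0.0262 to 1.66 in vB (median 0.515). In all 3 genes MXP had the highest and vB the lowest mean, and within MNP and within MXP replicates 2 and 6 were the highest libraries.

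In limb over facial tissue the log2 fold change was -1.41 ± 0.36 (limma adjusted p = 0.00662) for Col6a1. It was -1.44 ± 0.38 (limma adjusted p = 0.00772) for Col6a2 and -1.04 ± 0.27 (limma adjusted p = 0.00826) for Col6a3. The Col6a3 call was lost in 7 of 21 alternatives, among them the replicate block, the sequencing run as a block (a log2 fold change of -0.79), quantile normalization and the fits without MXP replicate 2 or 6. In facial over neural tissue Col6a1 was higher by 1.46 ± 0.29 (limma adjusted p = 5.88e-05), Col6a2 by 1.42 ± 0.30 (limma adjusted p = 0.000156) and Col6a3 by 1.35 ± 0.22 (limma adjusted p = 2.92e-06). Within the face, FNP over MXP was -2.09 ± 0.46 (limma adjusted p = 0.00284) for Col6a1, -1.73 ± 0.48 (limma adjusted p = 0.0231) for Col6a2 and -1.26 ± 0.35 (limma adjusted p = 0.0218) for Col6a3. Col6a3 was also lower in FNP over MNP (-1.04 ± 0.33, limma adjusted p = 0.0499), a call that 13 of 21 alternatives lost. Among them were the fits without MXP replicate 1, 5 or 6 or vB replicate 1, 2 or 3. In FNP over MXP the Col6a2 call was lost without MXP replicate 2, 3 or 6 and the Col6a3 call without MXP replicate 2 or 6. Both were lost without FNP replicates 4 and 5 and vB replicates 1, 4 and 5. Col6a1 over Col6a2 FPKM was 0.452 to 0.879 in the 32 libraries with at least 1 FPKM of both. The chains of the other type VI genes, Col6a4, Col6a5 and Col6a6, did not pass 0.334 FPKM in any library.

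Col8a2 (chr4:126286794-126314330, plus strand), a chain of the hexagonal network known from corneal and vascular matrix, had the largest log2 fold change between facial prominences among the tested collagen genes. It ranged from 0.163 to 1.71 FPKM in limb (median 0.663), 7.73 to 22.4 in FNP (median 15.6) and 6.54 to 11.1 in MNP (median 8.29), and was 2.04, 1.75, 0.957, 1.75 and 1.67 FPKM in the MXP libraries. Col8a2 ranged from 1.14 to 14.0 FPKM in dB (median 8.01) and 0.0230 to 6.12 in vB (median 1.24). All FNP and MNP libraries were above all limb and all MXP libraries, and dB overlapped with FNP and MNP. Limb over facial was -2.04 ± 0.32 (limma adjusted p = 1.36e-05) and limb over neural -1.40 ± 0.34 (limma adjusted p = 0.000817). FNP over MXP was 2.54 ± 0.41 (limma adjusted p = 4.14e-05), MNP over MXP 1.86 ± 0.41 (limma adjusted p = 0.00570) and dB over vB 1.52 ± 0.39 (limma adjusted p = 0.0164). In replicates 4 to 6 alone none of these 5 calls was kept. Col8a1, its partner chain, averaged 1.14 ± 0.535 FPKM in limb, 2.39 ± 2.60 in FNP, 0.557 ± 0.457 in MNP and 2.20 ± 1.61 in MXP, against 0.810 ± 0.579 in dB and 0.223 ± 0.184 in vB and was not called in these comparisons.

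Type XVIII and XV collagens are basement membrane proteoglycans. Col18a1 (chr10:77052179-77166530, minus strand), whose end fragment is endostatin, ranged from 22.0 to 39.2 FPKM in limb (median 34.4), 26.2 to 47.6 in FNP (median 34.2) and 21.2 to 54.3 in MNP (median 39.5), and was 52.0, 39.5, 25.1, 40.2 and 33.2 FPKM in the MXP libraries. Col18a1 ranged from 24.2 to 39.4 FPKM in dB (median 29.4) and 12.1 to 38.8 in vB (median 15.8). All tissues overlapped and it was among the 6 genes called in no tissue pair. At least 98.9% of its FPKM came from the transcript of its upstream start in every library. Col15a1 averaged 5.03 ± 2.01 FPKM in limb and 7.19 ± 1.87 in facial tissue, against 2.89 ± 1.78 in neural tissue, and facial over neural was 1.20 ± 0.19 (limma adjusted p = 2.80e-06).

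Of the membrane-spanning collagens, Col17a1 (chr19:47646341-47692042, minus strand), which anchors epithelial cells in hemidesmosomes, ranged from 0.690 to 5.05 FPKM in limb (median 2.08), 0.318 to 3.97 in FNP (median 2.09) and 0.743 to 4.59 in MNP (median 2.12), and was 4.49, 9.40, 4.92, 2.24 and 5.71 FPKM in the MXP libraries. Col17a1 ranged from 0.0753 to 0.325 FPKM in dB (median 0.243) and 0 to 0.268 in vB (median 0.0398). Limb lay above neural tissue without overlap, and every facial library but the lowest of FNP was above every neural library. It was higher than in neural tissue in limb by 1.42 ± 0.26 (limma adjusted p = 3.25e-05) and in the face by 1.70 ± 0.20 (limma adjusted p = 6.72e-09). FNP over MXP was -1.11 ± 0.32 (limma adjusted p = 0.0276), a call lost in 10 of 21 alternatives, among them the fits without MXP replicate 2, 3 or 6. Surface epithelium markers, 10 genes, were also higher in limb and facial than in neural tissue. They summed to 89.0 to 177 in limb, 113 to 227 in FNP, 118 to 162 in MNP and 112 to 286 in MXP. In dB the sum was 9.81 to 17.5 and in vB 2.89 to 32.6 (FPKM). The sums of FNP, MNP and MXP overlapped, and the part of these markers in the Col17a1 levels was not tested.

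Col25a1 (chr3:130131501-130599883, plus strand), which in mouse is needed for motor nerves to enter muscle, ranged from 3.39 to 8.97 FPKM in limb (median 4.36), 0.992 to 3.50 in FNP (median 1.52) and 3.69 to 7.02 in MNP (median 4.50), and was 2.56, 6.03, 2.40, 2.22 and 4.58 FPKM in the MXP libraries. Col25a1 ranged from 0.444 to 1.26 FPKM in dB (median 0.723) and 0.382 to 1.20 in vB (median 0.733). Limb and MNP were highest, neither overlapping with neural tissue, and FNP lay under MNP without overlap. Limb over neural was 1.75 ± 0.18 (limma adjusted p = 7.99e-10) and facial over neural 1.24 ± 0.14 (limma adjusted p = 2.08e-09), both kept in all 21 alternatives. FNP over MNP was -1.14 ± 0.21 (limma adjusted p = 0.000219). Between facial tissues, 5 skeletal muscle markers were also highest in MNP, summing to 0.935 to 4.30 in FNP, 14.9 to 67.0 in MNP and 0.982 to 12.9 in MXP (FPKM). In MXP replicates 1, 2, 3, 5 and 6 the sums were 12.9, 2.14, 0.982, 12.1 and 11.9 FPKM. Col25a1 was 2.56, 6.03, 2.40, 2.22 and 4.58 FPKM in the same order. In limb the markers summed to 10.6 to 85.3 FPKM, with replicate 4 lowest and replicate 6 highest for both the sum and Col25a1. This order was not particular to Col25a1, as limb replicate 6 was highest for 26 of 33 collagen genes and replicate 4 lowest for 19. The part of the muscle markers in the Col25a1 levels was not tested. Without FNP replicates 4 and 5 and vB replicates 1, 4 and 5, the FNP over MNP call of Col25a1 was lost.

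Col13a1 (chr10:61838498-61979108, minus strand), of cell adhesions and nerve-muscle junctions, ranged from 0.516 to 1.52 FPKM in limb (median 0.816), 2.27 to 9.25 in FNP (median 4.13) and 2.10 to 3.61 in MNP (median 2.92), and was 1.76, 1.54, 1.56, 3.62 and 2.28 FPKM in the MXP libraries. Col13a1 ranged from 0.642 to 0.890 FPKM in dB (median 0.692) and 0.0632 to 2.63 in vB (median 0.295). Limb lay under all facial libraries without overlap, and limb over facial was -1.11 ± 0.21 (limma adjusted p = 0.000255), a call that 5 of 21 alternatives lost, among them quantile normalization and the fit without FNP replicates 4 and 5 and vB replicates 1, 4 and 5. Facial over neural was 1.20 ± 0.17 (limma adjusted p = 2.21e-07). Col23a1 (chr11:51289920-51583925, plus strand) ranged from 5.12 to 11.2 FPKM in limb (median 8.96), 6.32 to 11.6 in FNP (median 7.999) and 11.8 to 16.3 in MNP (median 15.03), and was 13.6, 11.9, 9.72, 17.3 and 10.9 FPKM in the MXP libraries. Col23a1 ranged from 3.43 to 6.63 FPKM in dB (median 5.33) and 0.619 to 8.31 in vB (median 2.71). MNP exceeded FNP without overlap, and facial over neural was 1.34 ± 0.17 (limma adjusted p = 4.50e-08), kept in all 21 alternatives. Col7a1, the anchoring fibril of skin, averaged 1.78 ± 1.23 FPKM in facial and 0.361 ± 0.224 in neural tissue and was under the fold threshold (0.94 ± 0.17, limma adjusted p = 2.02e-05). Col10a1, of hypertrophic cartilage, did not pass 0.0423 FPKM in any library, and Col28a1 did not pass 0.382 FPKM.

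Between dorsal and ventral brain, 4 collagen genes were higher in dB, Col1a1, Col1a2, Col3a1 and Col8a2. Col1a1 was 26.9, 88.3, 41.1, 23.0, 46.2 and 68.9 FPKM in dB replicates 1 to 6, against 16.3, 6.39, 2.03, 18.4, 42.1 and 0.336 FPKM in vB replicates 1 to 6. Col1a2 was 49.7, 115, 62.5, 43.1, 63.5 and 92.3 FPKM in dB, against 39.6, 12.7, 4.59, 40.6, 77.7 and 1.15 FPKM in vB. In both genes 5 vB libraries lay below all dB libraries, replicates 2, 3 and 6 the furthest, and vB replicate 5 lay within the dB range. Col3a1 was 77.5, 113, 74.6, 73.3, 92.9 and 96.3 FPKM in dB, against 62.0, 19.3, 7.40, 85.2, 98.3 and 0.722 FPKM in vB, with vB replicates 4 and 5 inside the dB range. The log2 fold change of dB over vB was 2.37 ± 0.60 (limma adjusted p = 0.0166) for Col1a1. For Col1a2 it was 2.02 ± 0.53 (limma adjusted p = 0.0189) and for Col3a1 1.92 ± 0.57 (limma adjusted p = 0.0443).

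Single vB libraries decided these calls. Without vB replicate 3 none of the 4 was called, Col1a1 being 2.07 ± 0.62 (limma adjusted p = 0.0641). Without vB replicate 6 none was called either, Col1a1 being 1.83 ± 0.55 (limma adjusted p = 0.0717), Col1a2 1.43 ± 0.44 (limma adjusted p = 0.0800) and Col3a1 1.16 ± 0.40 (limma adjusted p = 0.143). Over all genes, 102 of 13925 were called higher in dB without vB replicate 3 and 95 of 13910 without vB replicate 6. With all libraries 133 of 13934 were. Without vB replicate 5, 9 collagen genes were called higher in dB (background 1.46%, against 0.954% with all libraries). Without FNP replicates 4 and 5 and vB replicates 1, 4 and 5, 12 were (background 3.24%). In that fit Col1a1 was 3.86 ± 0.62 (limma adjusted p = 3.11e-05) and Col3a1 3.72 ± 0.45 (limma adjusted p = 4.17e-07). Its vB libraries were left out for their mesenchyme markers, which moved with these chains. The larger difference is thus partly set by that choice and is not support for the calls. The fit without vB replicate 2 or without MXP replicate 5 lost Col3a1 alone among these 4.

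The mesenchyme markers moved with the type I and III chains: their mean log2(FPKM + 1) was 3.29 to 3.88 in dB, and 3.21, 1.52, 1.00, 3.12, 4.27 and 0.710 in vB replicates 1 to 6. Of the 8 markers, 6 were under 1 FPKM in vB replicate 6, 4 in replicate 3, 2 in replicate 2 and 0 in the other neural libraries, and none was at 0. Other markers also differed among these libraries. The 5 meninges markers (Foxc1, Foxc2, Foxd1, Tbx18 and Aldh1a2) summed to 19.8 to 37.3 in dB and to 72.2, 24.2, 20.0, 28.1, 83.2 and 20.5 FPKM in vB replicates 1 to 6. Their mean log2(FPKM + 1) was 2.06 to 2.66 in dB and 3.43, 2.01, 1.48, 2.39, 3.47 and 1.13 in vB replicates 1 to 6. Of the 5, 3 were under 1 FPKM in vB replicate 3 and 4 in replicate 6, against 1 or 0 in the other neural libraries. Surface epithelium markers summed to 32.6 and 29.1 FPKM in vB replicates 1 and 5 and to at most 3.84 FPKM in the other vB libraries. The part of these 3 lists in the dB over vB difference was not tested. The spread differed between genes. In vB replicates 6 and 5, Col1a2 was 1.15 and 77.7 FPKM and Col3a1 0.722 and 98.3 FPKM, while Col5a2 was 13.7 and 22.1 FPKM, Col18a1 12.4 and 38.8 FPKM and Col22a1 1.89 and 2.68 FPKM. Over the 6 vB libraries the ratio of highest to lowest was smallest for Col4a5 (1.65) and largest for Col9a1 (205) among the 20 genes at or above 1 FPKM in all tissues.

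**Figure D5:**
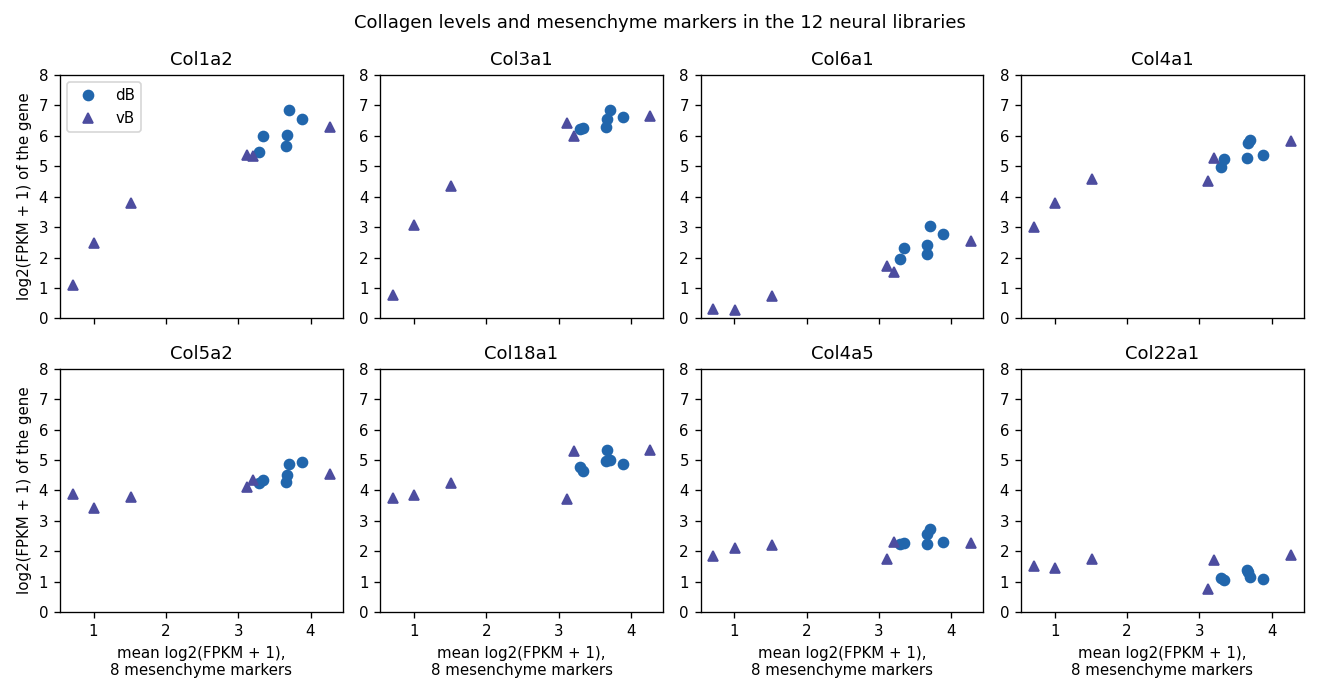
Level of 8 collagen genes, as log2(FPKM + 1), in the 6 dB (circles) and 6 vB (triangles) libraries, against the mean log2(FPKM + 1) of 8 mesenchyme markers in the same library. Each point is 1 library: the 3 vB libraries with marker means of 0.710 to 1.52 have the lowest Col1a2, Col3a1 and Col6a1 levels, while the lowest vB level of Col4a5 and of Col22a1 is that of replicate 4.

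Genes that make, bind or accompany collagens were read in the same fit. Of 33 collagen-processing genes (hydroxylases, chaperones, propeptide and cross-linking enzymes), 29 were tested. In facial over neural tissue 6 higher and 0 lower genes were called (background 4.64% and 6.64%), with a median log2 fold change of 0.52. In limb over neural tissue 4 higher and 1 lower were called (background 4.36% and 8.05%). Pcolce, which speeds removal of the type I propeptide, averaged 41.3 ± 5.67 FPKM in limb and 40.3 ± 6.02 in facial tissue, against 14.6 ± 8.29 in neural tissue, with 1.81 ± 0.35 (limma adjusted p = 6.69e-05) in limb over neural and 1.76 ± 0.27 (limma adjusted p = 9.52e-07) in facial over neural tissue. P4ha2, a subunit of prolyl hydroxylase, averaged 9.48 ± 1.95 FPKM in facial tissue, against 3.24 ± 0.889 in neural tissue (1.32 ± 0.10, limma adjusted p = 3.85e-13). Sparc, a collagen-binding matrix protein, was lower in limb over neural tissue (-1.18 ± 0.18, limma adjusted p = 9.72e-07).

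Among 5 tested collagen receptors, Ddr2, a discoidin domain receptor that binds fibrillar collagen, averaged 23.6 ± 7.15 FPKM in limb and 32.6 ± 11.3 in facial tissue, against 5.38 ± 3.66 in neural tissue (2.18 ± 0.35, limma adjusted p = 3.15e-06 and 2.62 ± 0.26, limma adjusted p = 2.12e-10). Its relative Ddr1 ran the other way, with 9.18 ± 3.75 FPKM in limb and 14.0 ± 2.59 in facial tissue, against 58.8 ± 20.7 in neural tissue (-2.53 ± 0.29, limma adjusted p = 8.25e-09 and -1.86 ± 0.22, limma adjusted p = 9.44e-09). Of 13 tested laminin and basement membrane genes, limb over neural tissue gave 4 higher and 2 lower (background 4.36% and 8.05%). Facial over neural tissue gave 3 higher and 1 lower (background 4.64% and 6.64%). Lama5, a laminin chain of epithelial basement membranes, was among the higher ones (1.74 ± 0.15, limma adjusted p = 7.38e-12 in facial over neural tissue), and Lamc3 among the lower ones (-1.70 ± 0.15, limma adjusted p = 6.14e-12). Of 14 fibril-associated matrix genes, 6 higher and 0 lower were called in facial over neural tissue (background 4.64% and 6.64%). They were led by Postn, a matricellular protein (2.75 ± 0.29, limma adjusted p = 9.22e-10). In limb over facial tissue 3 of the 14 were lower, Postn, Tnc and Fbn1 (background 1.51%). Of 9 tested cartilage genes, limb over facial tissue gave 2 higher and 1 lower (background 1.11% and 1.51%). Matn4 and Lect1 were higher and Runx2, a bone and cartilage regulator, was lower. These lists were drawn up as companions of the collagen genes and their counts stand beside the background shares given for each comparison.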

How the data were processed

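RNA was extracted with Trizol from pooled tissue and sequenced as paired-end reads of 75 bases. The authors deposited 1 Cufflinks table per library with FPKM and coverage for each of 59120 transcripts on mm10. The submitters' processing notes name Bowtie2 and DESeq2, and which aligner and versions lie behind the Cufflinks tables is not given in the sources used here. Read counts were not used, so that depth was read only from the deposited coverage signal, and no counting interval is given. For each library, 65 transcripts with a space in their gene name were left out, and FPKM of the other 59055 were summed per gene, giving 30723 genes.

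The 13934 genes whose mean reached 1 FPKM in 1 tissue or more were fitted on log2(FPKM + 1), a log2 scale computed from the deposited FPKM, in limma 3.58.1 (R 4.3.3) with 1 mean per tissue, a trended prior and robust variances. Facial and neural means weighted their tissues equally, p-values were adjusted by Benjamini-Hochberg over all genes in each comparison, and the fits were tested on simulated data. No label says which embryos a replicate number shares. The p-values use the spread between pools of a tissue. As the reported fit has no block, that spread also holds differences between sequencing runs and between replicate numbers shared across tissues. Sums and plots used Python 3.11.15, pandas 2.3.3 and matplotlib 3.10.9. Start windows came from RefSeq and exons from GENCODE vM21. The collagen genes, the classes and the companion and marker lists were chosen with earlier results of these data known. Values per library are given for the 3 most abundant genes of each class and for up to 5 called genes with the largest change in each comparison, and other members by means, ranges or counts. Alternatives covered the pseudocount, the filter, normalization, blocks, subsets of replicates, the fold test and the leaving out of libraries. No 2 libraries were duplicates (highest correlation 0.989).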

Additional observations from a re-analysis of the deposited data

Results flagged for a closer look

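In 8 of 198 groups of collagen values by gene and tissue, 1 library lay further from the others than Dixon's 95% limit allows, and chance gives about 1 in 20 groups. Col14a1 stood at 0.862 FPKM in MXP replicate 2, against 0.174 to 0.272 FPKM in the other MXP libraries, and at 0.501 FPKM in vB replicate 1, against 0.130 to 0.224 FPKM. Col16a1 was 0.736 FPKM in dB replicate 4, against 2.11 to 3.28 FPKM. Col2a1 was 25.8 FPKM in MNP replicate 3, against 55.6 to 85.4 FPKM, and 53.9 FPKM in dB replicate 5, against 30.4 to 37.5 FPKM. Col4a2 was 17.0 FPKM in FNP replicate 3, against 27.9 to 36.1 FPKM. Col7a1 was 0.741 FPKM in vB replicate 5, against 0.105 to 0.277 FPKM. Col9a3, a type IX chain, was 0.199 FPKM in vB replicate 4, against 1.71 to 3.15 FPKM in the other vB libraries.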

How the results depend on the processing

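Of the 42 calls of collagen genes, 12 were kept in all 21 alternatives, and none of the 42 turned its direction in any of them. Replicates 4 to 6 alone lost 26 of the 42 calls and replicates 1 to 3 alone lost 14. Replicates 4 to 6 alone gave 0 calls in limb over facial, 4 in limb over neural and 1 in FNP over MNP. This subset gave 0 in FNP over MXP, 0 in MNP over MXP, 0 in dB over vB and 16 in any pair. All genes called higher and lower, of 13843, were 124 and 121 in limb over facial and 580 and 948 in limb over neural. They were 121 and 78 in FNP over MNP and 71 and 37 in FNP over MXP. In MNP over MXP they were 31 and 15, in dB over vB 17 and 7, and 2589 genes were called in any pair. Replicates 1 to 3 alone gave 0 in FNP over MNP, 3 in FNP over MXP, 1 in MNP over MXP and 2 in dB over vB. Among all 14045 genes, 229 were higher and 115 lower in FNP over MNP and 199 and 79 in FNP over MXP. These were 70 and 31 in MNP over MXP and 187 and 79 in dB over vB. The test against a fold of 1.5 gave 2 in limb over facial, 5 in limb over neural and 0 in FNP over MNP. It gave 1 in FNP over MXP, 0 in MNP over MXP and 0 in dB over vB. Among all 13934 genes, 126 were higher and 117 lower in limb over facial and 597 and 1135 in limb over neural. They were 128 and 68 in FNP over MNP and 97 and 53 in FNP over MXP. In MNP over MXP they were 33 and 14 and in dB over vB 42 and 16. The replicate subsets and the fold test have fewer samples or a stricter threshold by construction, and calls over all genes shift with them. Quantile normalization gave 3 in limb over facial, beside 168 higher and 186 lower of all 13934 genes. A pseudocount of 0.1 gave 22 in facial over neural and 0 in MNP over MXP. Among all 13934 genes, 1063 were higher and 1315 lower in facial over neural and 136 and 86 in MNP over MXP. Rescaling on transcripts of at least 200 bases gave 1 in FNP over MNP and 4 in FNP over MXP. Beside them stood 238 higher and 129 lower, and 205 and 96, of all 13974 genes. No low filter gave 1 in FNP over MNP, beside 230 higher and 132 lower of all 22333 genes. Leaving out single MXP or vB libraries gave 1 to 3 calls in FNP over MNP, 2 to 7 in FNP over MXP, 1 to 2 in MNP over MXP and 0 to 9 in dB over vB. All genes called in these fits were 230 to 238 higher and 135 to 142 lower in FNP over MNP. They were 169 to 226 and 86 to 128 in FNP over MXP. In MNP over MXP they were 74 and 43 without MXP replicate 3 and 99 and 76 without MXP replicate 5. In dB over vB they were 95 and 44 without vB replicate 6 and 203 and 74 without vB replicate 5. Leaving out 5 libraries at once gave 12 in dB over vB, beside 456 higher and 291 lower of all 14082 genes. The cause of these shifts was not tested.

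Replicate numbers were shared between tissues. Among 85 pairs of libraries with the same number, deviations from the tissue means correlated at 0.00777 to 0.698 (median 0.342, 78 over 0.1), against a median of -0.0737 and 57 over 0.1 among 425 pairs with different numbers, and 31 of 35 libraries correlated best with their own number. Libraries of 1 number thus deviated together in most cases, and most libraries of 1 number shared a sequencing run. The run did not tell all numbers apart. Replicates 5 and 6 of every tissue were in the same run as replicate 4 of FNP and dB. Replicate 4 of limb, MNP and vB came from another run. Because not every pair passed 0.1 and no label says what a number marks, the fit without a block was kept as the reported one. With a replicate block 40 of the 42 calls were kept, Col6a3 in limb over facial and Col17a1 in FNP over MXP being lost. FNP over MNP had 3, FNP over MXP 7 and dB over vB 6 calls (Col6a1 and Col6a2 beside the 4 reported). Of all 13934 genes this fit called 244 higher and 145 lower in FNP over MNP, against 235 and 138 without the block. In dB over vB it called 151 and 68, against 133 and 61. In FNP over MXP 239 were higher, against 213, and slightly fewer than the 104 without the block were lower. With the sequencing run as a block 41 of the 42 calls were kept, Col6a3 in limb over facial being lost. Depth limited genes near 0 FPKM, whose fold changes depend on the pseudocount.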

Other observations

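Chains of 1 collagen type did not all keep a fixed ratio, as a description of levels in FPKM with no test. Col5a1 over Col5a2 was 0.134 to 0.671 in limb (median 0.403) and 0.435 to 0.744 in MNP (median 0.524), against 0.247 to 0.511 in dB (median 0.403) and 0.139 to 0.511 in vB (median 0.268). Col9a3 over Col9a2 was 0.307 to 0.655 in MNP (median 0.413), against 0.388 to 1.91 in vB (median 1.48). Col4a5 over Col4a6 lay between 2.99 and 3.91 in the 10 libraries with at least 1 FPKM of both. In limb over neural tissue the cartilage gene Matn4, a matrilin, was higher by 2.15 ± 0.36 (limma adjusted p = 6.20e-06) beside the type IX chains, while Sox6, a regulator of cartilage genes that is also used in the nervous system, was lower (log2 fold change -1.03 ± 0.25, limma adjusted p = 0.000884).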
